A study of Mus musculus with 6 samples.

Results

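The genes described here are 9 enzymes that join methionine, arginine and creatine metabolism: Bhmt, Agmat, Gatm, Gamt, Ass1, Arg1, Cbs, Cth and Mat1a. They were taken by name out of the 18193 genes that have a probe set of their own on the array, and each is represented by the single-gene probe set with the highest mean log2 value over all arrays. The list was chosen by the measured difference of Bhmt and of Agmat between these genotypes together with the pathways of both enzymes, so the differences below are a description and carry no test for any of the 9 genes. The arrays measured whole mouse kidneys at E13.5 (counted in days of embryonic life) from mice of mixed C57BL/6, 129S1/Sv and 129X1/SvJ background. The 3 double-null arrays (Fz4-/-Fz8-/-, called M1, M2 and M3) lacked the Frizzled Wnt receptors Fz4 and Fz8. The 3 Fz8-null arrays (Fz4+/+Fz8-/-, called C1, C2 and C3) lacked Fz8 alone, so Fz8 was missing from every kidney and no array held a fully wild-type kidney. The comparison asked what loss of Fz4 adds when Fz8 is already gone. The labels call the arrays biological replicates and do not say how many embryos or which litters went into each, and they name no batch.

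Methionine is activated to S-adenosylmethionine, gives up its methyl group and becomes homocysteine, which is either methylated back to methionine or passed through transsulfuration to cysteine. Betaine-homocysteine methyltransferase (Bhmt) takes the methyl group from betaine and is best known from liver and, in humans, also from kidney. Arginine feeds the urea cycle, creatine synthesis and the polyamines, and the proximal tubule of the mature kidney makes arginine and the creatine precursor guanidinoacetate. Several of the 9 enzymes are also abundant in hepatocytes, which is why each is set beside Alb and Afp, the genes of the liver serum proteins albumin and alpha-fetoprotein.

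Bhmt and Agmat were higher in every double-null array than in any Fz8-null array, and the other 7 enzymes stayed within 1 log2 unit of the Fz8-null mean as group averages. Bhmt stood 9.38-fold and Agmat 2.15-fold higher on average. Arg1 and Gamt had lower means in double-null kidneys, while Gatm, Ass1, Cbs, Cth and Mat1a differed by at most 0.24 on the log2 scale. Of the 9 genes, 4 had a positive difference, against 41.9% of all genes, and 5 a negative one, against 58.1%, with a median of -0.01, against a median of -0.061 over all 18193 genes. Groups did not overlap for 3 members on the higher side, where the background over all genes was 6.68%, and for 1 member on the lower side, where it was 12.2%. No member passed a limma adjusted p of 0.05, 0 higher and 0 lower, against a background of 0.0055% of genes called higher and 0.022% called lower. Nothing about the members is read from these counts, because the same comparison helped to choose them.

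**Figure D1:**
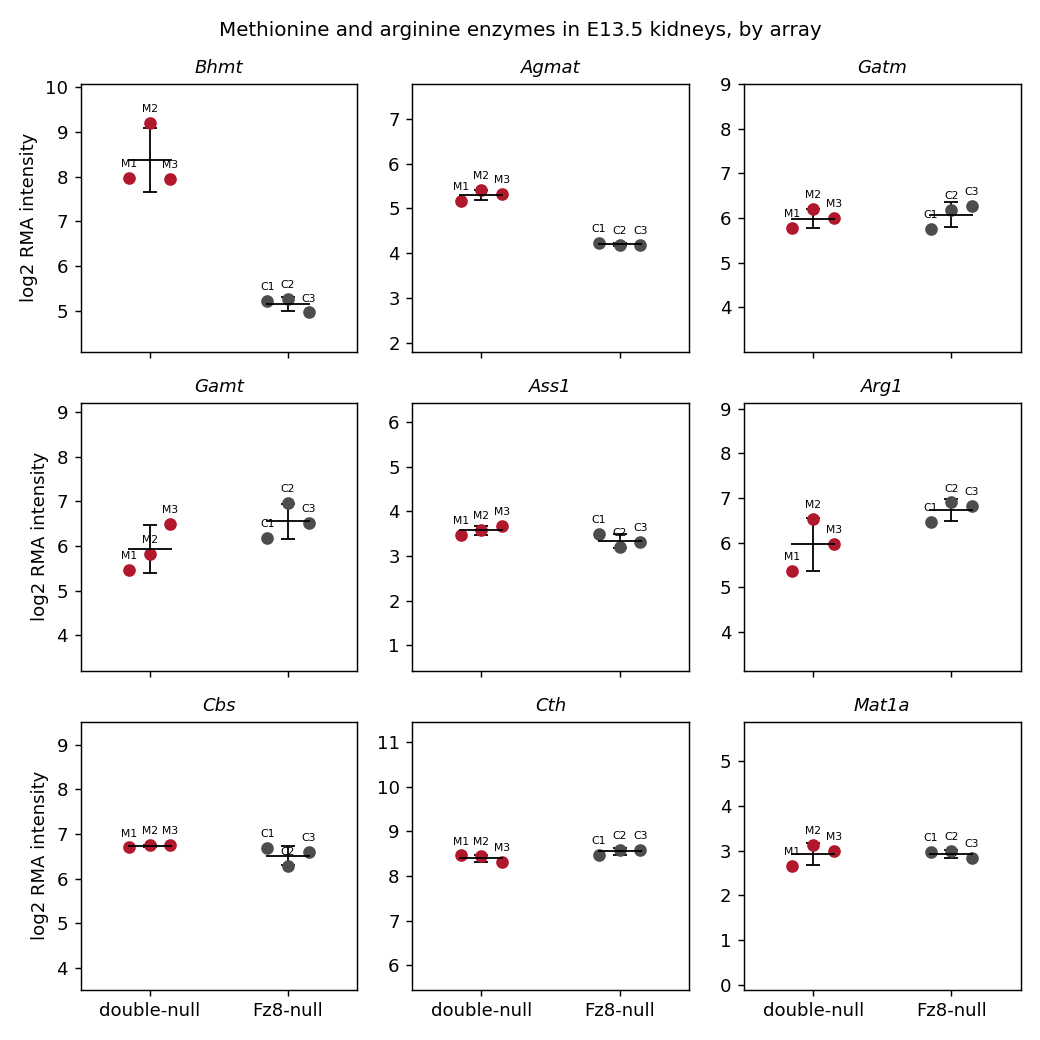
Log2 RMA intensity of the representative probe set of each of the 9 enzymes, with double-null arrays M1 to M3 on the left of each panel and Fz8-null arrays C1 to C3 on the right. Points are arrays, the horizontal mark is the group mean and the bar is the SD (n = 3); every panel spans the same number of log2 units. Bhmt and Agmat separate by genotype with wide gaps, and Arg1 and Gamt spread most within the double-null group among the remaining panels.

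Some facts of the arrays bear on these values. The Fz4 gene, Fzd4, read 5.29, 4.96 and 3.89 in M1, M2 and M3, against 10.74, 10.86 and 10.93 in C1, C2 and C3, so the labels fit the targeted transcript. This log2 difference of -6.13 passed over all genes (adjusted p of limma 0.00318, SE 0.35). Kidney regulators were present, since the 10 measured genes of the embryonic kidney list, Six2 and Wt1 among them, had mean log2 levels between 6.52 and 10.87. All 10 were lower in double-null kidneys, against 58.1% of all genes, and 7 lay lower without overlap, against 12.2%. With a median difference of -0.47, the 10 genes had 0 calls by limma over all genes. Their mean level was 8.92, 8.64 and 9.17 in M1, M2 and M3, against 9.53, 9.45 and 9.47 in C1, C2 and C3, and the part of this shift in the differences of the enzymes was not tested. Of the 64 Affymetrix control probe sets, 18 lay higher without overlap in double-null arrays and 2 lay lower, against 6.68% and 12.2% of all genes. Most of the 18 were bioB, bioC, bioD and cre controls, which are not mouse transcripts. The control for the 5′ end of bioB read 10.22, 10.52 and 10.43 in M1, M2 and M3, against 10.05, 9.39 and 9.29 in C1, C2 and C3. The B1 repeat control read 11.83, 12.08 and 10.85 in M1, M2 and M3, against 11.02, 10.67 and 10.73 in C1, C2 and C3. The control for the 5′ end of 18S ribosomal RNA read 9.88, 10.56 and 9.86 in M1, M2 and M3, against 8.53, 7.59 and 7.84 in C1, C2 and C3. The control for its 3′ end read 9.16, 9.64 and 9.25 in M1, M2 and M3, against 8.14, 7.32 and 7.40 in C1, C2 and C3. Both of these end controls separated the genotypes, with M1 near M3 and a peak in M2, as Bhmt did. The control for the middle of 18S ribosomal RNA, the brightest of these, overlapped between genotypes and peaked in M3. This middle control read 10.79, 11.12 and 11.87 in M1, M2 and M3, against 11.23, 11.43 and 11.38 in C1, C2 and C3. The 3′ minus 5′ difference of the actin controls, a sign of RNA integrity, was 1.30, 1.08 and 0.57 in M1, M2 and M3, against 1.00, 0.74 and 0.75 in C1, C2 and C3. The part of these controls in the results was not tested. Arrays hold no counts, so precision rests on 3 arrays in each group, and in whole tissue a change in the number of cells of a type cannot be told apart from a change in RNA per cell.

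Bhmt was the member with the largest difference. Its only probe set, 1450624_at, read 7.97, 9.20 and 7.95 in M1, M2 and M3, against 5.21, 5.26 and 4.96 in C1, C2 and C3. All double-null arrays were far above all Fz8-null arrays, M1 and M3 stood nearly level, and M2 was the highest. The group means were 8.37 ± 0.72 in double-null and 5.14 ± 0.16 in Fz8-null kidneys (SD, n = 3 each), a log2 difference of 3.23 (SE 0.34). Among all 18193 genes, 5 had a difference at least this large, Bhmt included. The gene lies on chromosome 13 between 93616891 and 93637758 (GRCm38.p6).

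Bhmt2, a neighbouring relative that methylates homocysteine from S-methylmethionine, lies 18.3 kb away on the same chromosome. Its brighter probe set (1418913_at) read 6.27, 5.86 and 5.99 in M1, M2 and M3, against 5.12, 5.50 and 5.62 in C1, C2 and C3. The groups did not overlap, but the highest double-null array was M1 and not M2 as for Bhmt. The log2 difference of 0.63 (SE 0.19) did not pass over all genes (limma adjusted p = 0.314). A dimmer Bhmt2 probe set (1418914_s_at) overlapped between groups, with a difference of 0.46. Whether the probe sets of this pair read each other's transcript was not examined here.

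Agmat encodes agmatinase of the arginase family, an enzyme that in bacteria splits agmatine into putrescine and urea. It read 5.17, 5.41 and 5.32 in M1, M2 and M3, against 4.23, 4.18 and 4.18 in C1, C2 and C3 (1427214_at). The values were tight in both genotypes, with a spread of 0.24 among double-null and 0.05 among Fz8-null arrays, and a wide gap lay between them. The means were 5.30 ± 0.12 in double-null and 4.20 ± 0.03 in Fz8-null kidneys (SD, n = 3 each), and the log2 difference was 1.10 (SE 0.12). The signal was dim, at the 33.3 percentile of all probe sets by mean level, against the 58.3 percentile for Bhmt, and 530 genes had a difference at least as large as that of Agmat. Agmat lies on chromosome 4 between 141746675 and 141759263 (GRCm38.p6).

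The sequences upstream of Bhmt and Agmat are shown because these members moved together, and those of Alb and Afp because they are the liver genes set beside them. Each run is the 250 bases before the annotated start, from RefSeq on GRCm38.p6, and 6 of the 9 members had an entry. Capitals mark a match to TTGCNNAA, a word of the C/EBP factors, or to CAAAGGTCA, a word bound by HNF4 and related nuclear receptors, on either strand.
Bhmt (chr13:93637759-93638008, minus strand): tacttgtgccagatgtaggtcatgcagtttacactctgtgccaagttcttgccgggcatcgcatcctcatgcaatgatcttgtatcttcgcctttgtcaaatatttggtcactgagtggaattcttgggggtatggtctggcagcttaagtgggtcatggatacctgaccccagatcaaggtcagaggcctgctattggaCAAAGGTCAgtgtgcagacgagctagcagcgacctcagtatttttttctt
Agmat (chr4:141746425-141746674, plus strand): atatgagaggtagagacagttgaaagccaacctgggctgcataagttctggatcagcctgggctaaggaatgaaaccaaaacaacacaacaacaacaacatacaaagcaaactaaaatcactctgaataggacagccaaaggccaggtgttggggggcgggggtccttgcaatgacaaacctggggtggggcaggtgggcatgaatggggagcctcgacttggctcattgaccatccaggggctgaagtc
Alb (chr5:90460620-90460869, plus strand): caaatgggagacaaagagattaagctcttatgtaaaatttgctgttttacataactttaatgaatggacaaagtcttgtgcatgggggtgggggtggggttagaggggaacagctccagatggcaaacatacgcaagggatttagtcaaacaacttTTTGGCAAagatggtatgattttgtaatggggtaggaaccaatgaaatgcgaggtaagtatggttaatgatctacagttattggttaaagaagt
Afp (chr5:90490464-90490713, plus strand): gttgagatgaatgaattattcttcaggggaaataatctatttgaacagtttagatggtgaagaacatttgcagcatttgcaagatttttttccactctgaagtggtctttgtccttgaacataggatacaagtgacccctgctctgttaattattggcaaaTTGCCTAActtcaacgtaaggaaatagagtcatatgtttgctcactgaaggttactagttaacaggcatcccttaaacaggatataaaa
The Bhmt window held CAAAGGTCA once, a word found in 0.426% of 32851 windows of this length and searched for only after the Bhmt window had been read. The Alb and Afp windows each held TTGCNNAA once, which 9.56% of windows hold, and the Bhmt and Agmat windows held none. The consensus word of HNF1, in 0.0609% of windows, and the HNF4 word CAAAGTCCA, in 0.384%, were in none of these 4 windows. Only exact words were searched for, so a site that departs from its word by any base was not counted, and absence of a word is not absence of a site. Among the other members with an entry, Ass1, Gatm, Gamt and Cbs held none of the 4 words, and none of these matches overlapped another. These matches describe letters and not binding.

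The methionine adenosyltransferase among the members was level between genotypes. Mat1a, the methionine adenosyltransferase of adult hepatocytes, read 2.65, 3.12 and 3.00 in M1, M2 and M3, against 2.96, 3.00 and 2.83 in C1, C2 and C3. The groups overlapped fully and the probe set lay at the 6.97 percentile of mean level, among the dimmest on the array, so a low level of Mat1a could not be told from background. Mat2b, the regulatory subunit of the form used outside the liver, differed by 0.09, and Ahcy, which clears S-adenosylhomocysteine, by -0.03 (limma adjusted p = 0.722 and 0.915).

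Cbs, cystathionine beta-synthase, opens the transsulfuration route. Its brighter probe set (1425623_a_at) read 6.70, 6.75 and 6.75 in M1, M2 and M3, against 6.68, 6.28 and 6.59 in C1, C2 and C3. The double-null arrays were all above the Fz8-null ones, but M1 and C1 were almost equal, and the difference was 0.22 (SE 0.15). The other Cbs probe set (1423844_s_at) read 5.92, 6.01 and 6.46 in M1, M2 and M3, against 6.34, 5.98 and 5.85 in C1, C2 and C3, so it overlapped, with a difference of 0.08. Cth, which cleaves cystathionine to cysteine, was the brightest of the 9 probe sets relative to the whole array, at the 76.8 percentile. It read 8.46, 8.44 and 8.32 in M1, M2 and M3, against 8.47, 8.59 and 8.59 in C1, C2 and C3, a difference of -0.14 (SE 0.12). Its groups did not overlap, though M1 and C1 were almost equal, and they overlapped after quantile normalization or equal array medians.

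On the arginine side, Arg1, the arginase of the liver urea cycle that some macrophages also make, read 5.37, 6.54 and 5.97 in M1, M2 and M3, against 6.46, 6.90 and 6.82 in C1, C2 and C3. M1 was the lowest array and M2 reached into the Fz8-null range, so the groups overlapped. The means were 5.96 ± 0.59 in double-null and 6.73 ± 0.24 in Fz8-null kidneys (SD, n = 3 each), a difference of -0.77 (SE 0.30). Without M2 it was -1.06 and without M1 it was -0.47. The kidney arginase gene Arg2 read 7.91, 7.71 and 7.87 in M1, M2 and M3, against 8.41, 8.28 and 8.22 in C1, C2 and C3. These groups did not overlap, at a difference of -0.47 (SE 0.13) that did not pass over all genes (limma adjusted p = 0.314), and its other probe set stood at -0.45.

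Ass1, argininosuccinate synthase, joins citrulline and aspartate on the way to arginine. Its single-gene probe set (1459937_at) read 3.47, 3.59 and 3.67 in M1, M2 and M3, against 3.50, 3.20 and 3.32 in C1, C2 and C3. The groups overlapped through C1, the difference was 0.24 (SE 0.14) and the level was low, at the 14.4 percentile. A brighter probe set (1416239_at) is annotated to Ass1 and to Gm5424 together, and therefore was not used to represent the gene. It read 5.32, 5.44 and 5.48 in M1, M2 and M3, against 5.12, 5.36 and 5.32 in C1, C2 and C3, with a difference of 0.15.

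The creatine pair lay level or lower. Gatm, which transfers the amidino group of arginine to glycine, read 5.78, 6.20 and 6.00 in M1, M2 and M3, against 5.75, 6.19 and 6.27 in C1, C2 and C3. The ranges coincided almost entirely, and the difference of -0.08 (SE 0.19) turned to 0.03 without M1 and to 0.02 without C3. Gamt, which methylates guanidinoacetate to creatine with S-adenosylmethionine, read 5.46, 5.82 and 6.50 in M1, M2 and M3, against 6.19, 6.96 and 6.51 in C1, C2 and C3. M1 and M2 were below every Fz8-null array and M3 lay inside their range. The means were 5.93 ± 0.53 in double-null and 6.55 ± 0.39 in Fz8-null kidneys (SD, n = 3 each), and the difference was -0.63 (SE 0.31), or -0.92 without M3 and -0.40 without M1.

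The medians of the wider methionine and arginine pathways lay near 0, and none of their genes passed over all genes. Among the 132 measured genes of all lists that are not members, limma called 0 higher and 0 lower over all genes, and the smallest adjusted p was 0.307. At an unadjusted p under 0.05 limma gave 22 higher and 13 lower, against 6.05% and 9.23% of all genes. These counts cover the cell type lists too. The 22 include liver secretory genes such as Alb, Afp and Ttr, and from the pathway lists only Cps1, Otc, Bhmt2 and Slc7a9. In the methionine cycle, 2 of 10 genes were higher and 8 lower (median difference -0.14). Of these, Mtrr, which reactivates methionine synthase, stood at -0.49 (limma adjusted p = 0.317), and Ahcyl2, a relative of Ahcy, at -0.33 (limma adjusted p = 0.335). For both genes all double-null arrays read below every Fz8-null array. Mtr, methionine synthase itself, stood at -0.39 (limma adjusted p = 0.565). From choline and betaine to glycine, 2 of 9 were higher and 7 lower (median -0.14), with the serine hydroxymethyltransferase gene Shmt2 at -0.52 and the glycine methyltransferase gene Gnmt at -0.23 (limma adjusted p = 0.325 and 0.518). In transsulfuration and sulfur oxidation, 4 of 10 were higher and 6 lower (median -0.13), with the mitochondrial sulfur dioxygenase gene Ethe1 at -0.62 and the sulfurtransferase gene Mpst at -0.91 (limma adjusted p = 0.327 and 0.374).

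Among the arginine, creatine, polyamine and transport genes the largest positive differences were those of the first urea cycle steps. In the urea cycle and arginine list, 4 of 14 were higher and 10 lower (median -0.16). Cps1, carbamoyl phosphate synthetase of liver and gut mitochondria, read 6.13, 6.91 and 6.08 in M1, M2 and M3, against 5.19, 3.89 and 4.0 in C1, C2 and C3. Its groups did not overlap and its difference was 2.01 (SE 0.39, limma adjusted p = 0.307), with M2 highest as for Bhmt. Otc, the next enzyme, stood at 1.39 (limma adjusted p = 0.323) and overlapped, and its other probe sets stood at 1.77 and 1.08 without overlap. The shifts of these probe sets in M1, M2 and M3 from the Fz8-null mean were 0.56, 2.16 and 2.59 for one and 0.16, 1.57 and 1.52 for the other. They were low in M1 and high in both M2 and M3, as Alb and Afp were, and not highest in M2 alone as Cps1 and Bhmt were. The representative Otc probe set was highest in M2. By contrast, Asl, which completes arginine synthesis, stood at -0.35. In the creatine list 1 of 5 was higher and 4 lower (median -0.19), with the brain-type creatine kinase gene Ckb at -0.69 and the mitochondrial one, Ckmt1, at -0.37 (limma adjusted p = 0.317 and 0.486). In the agmatine and polyamine list 5 of 9 were higher and 4 lower (median 0.06), and the range was only -0.21 to 0.11. Odc1, ornithine decarboxylase and the usual source of putrescine, differed by 0.10, Oaz2 by -0.15 and Smox by -0.21 (limma adjusted p = 0.663, 0.615 and 0.648). For basic amino acid transport 2 of 6 were higher and 4 lower (median -0.20). There the partner genes of the renal cystine transporter stood apart, Slc7a9 at 0.56 and Slc3a1 at -0.60, and neither passed (limma adjusted p = 0.317 and 0.32).

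**Figure D2:**
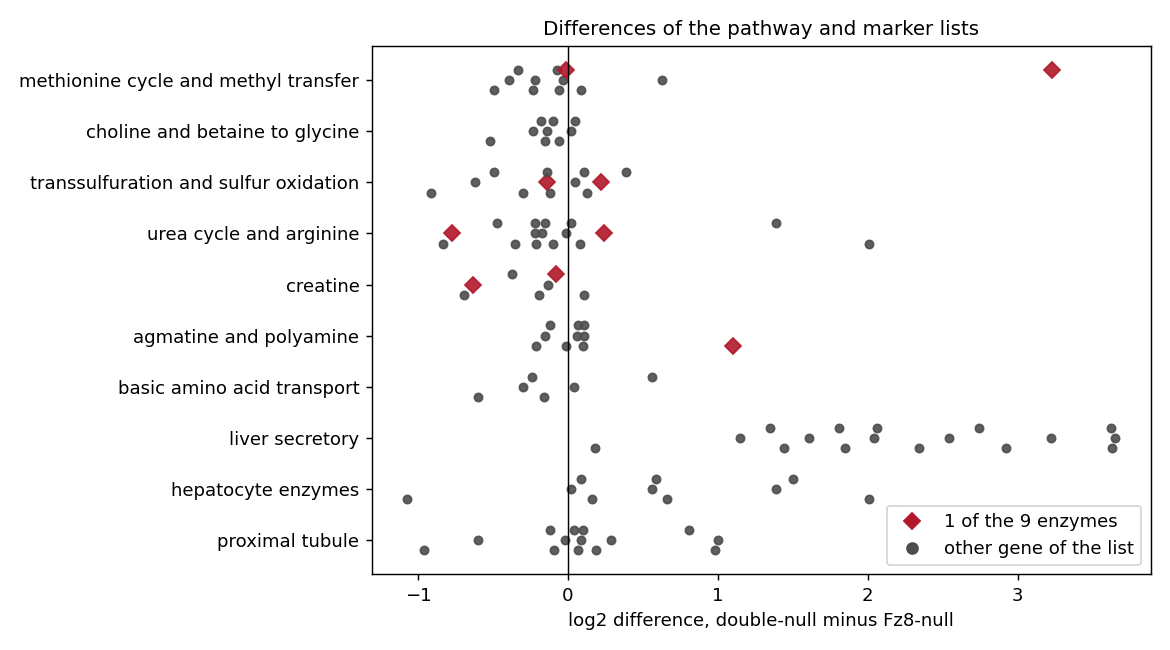
Log2 difference, double-null minus Fz8-null, of every measured gene in 10 lists, 1 list a row and 1 point a gene; diamonds are the 9 enzymes and circles the other genes. Bhmt at 3.23 and Agmat at 1.10 lie to the right of the remaining genes of their own pathway rows, while the liver secretory row reaches from 0.18 to 3.65.

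Liver secretory transcripts also lay higher in double-null kidneys, but with another pattern over the arrays than that of Bhmt. All 17 measured liver secretory genes had a positive difference (median 2.06), against 41.9% of all genes, and 0 passed over all genes. Without overlap were 7 of the 17, against 6.68% of all genes on the higher side. The mean log2 level of the 17 genes was 5.58, 8.12 and 8.40 in M1, M2 and M3, against 4.97, 5.49 and 4.91 in C1, C2 and C3. M2 and M3 therefore carried far more of this signal than M1, which stood just above C2. The 10 measured genes of the hepatocyte enzyme list had a different order over the arrays. Their mean level was 4.71, 5.15 and 4.78 in M1, M2 and M3, against 4.56, 4.22 and 4.10 in C1, C2 and C3. For this mean M1 lay near M3 and M2 was highest, as for Bhmt. Alb read 7.82, 10.82 and 11.03 in M1, M2 and M3, against 5.82, 7.06 and 5.89 in C1, C2 and C3. Afp read 8.46, 11.18 and 11.19 in M1, M2 and M3, against 6.56, 7.37 and 7.23 in C1, C2 and C3.

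Measured from the Fz8-null mean, Alb was shifted in M1, M2 and M3 by 1.56, 4.56 and 4.78, and Afp by 1.40, 4.13 and 4.13. The shifts of Bhmt were 2.83, 4.05 and 2.80, and those of Agmat were 0.98, 1.22 and 1.12. In M1, with the least liver signal of the double-null arrays, Bhmt stood as high as in M3, which had the most. M1 itself stood above every Fz8-null array for Alb and for the representative Afp probe set. The same held for the Afp probe sets 1416645_a_at and 1436881_x_at. It did not hold for 1416646_at, which read 6.96 in M1 and 7.11 in C2. The dim 1436880_at overlapped between groups, with a difference of -0.03. The mean of M2 and M3 exceeded M1 by 0.60 for Bhmt and 0.19 for Agmat, and by 3.11 for Alb and 2.72 for Afp. This difference between double-null arrays lay between -0.08 and 0.88 for the 9 enzymes, with a median of 0.33, and between 0.15 and 5.39 for the 17 liver secretory genes, with a median of 2.72. M1 is a single array, so it carries no test, and a kidney or liver source of Bhmt and Agmat was not tested. Within the Fz8-null group both genes were highest in C2, at 7.06 for Alb and 5.26 for Bhmt. C1 and C3 read 5.82 and 5.89 for Alb and 5.21 and 4.96 for Bhmt.

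**Figure D3:**
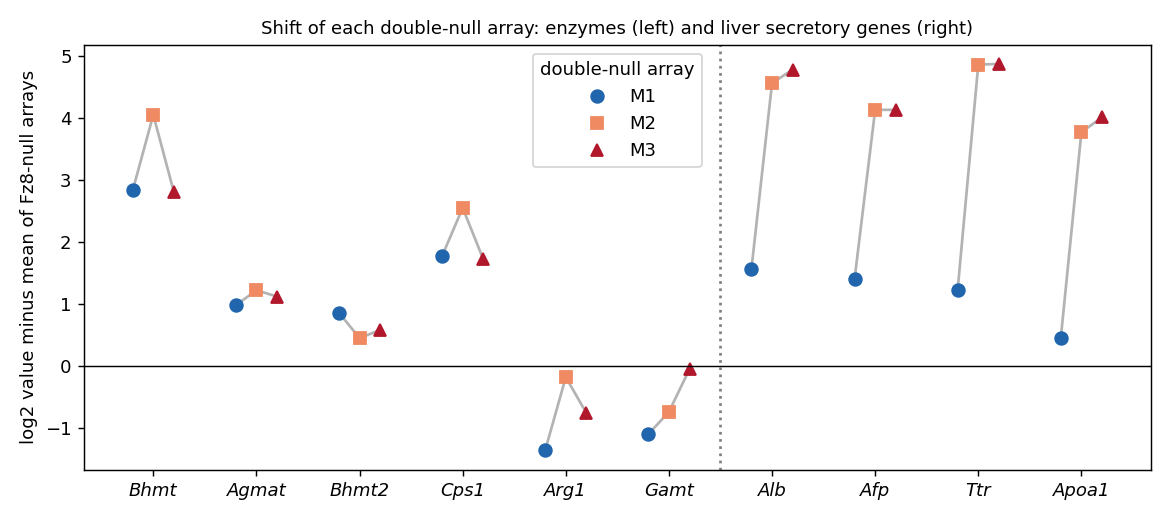
Log2 value in each double-null array (M1 circle, M2 square, M3 triangle) minus the mean of the 3 Fz8-null arrays, for 6 enzyme genes left of the dotted line and 4 liver secretory genes right of it. For Alb, Afp, Ttr and Apoa1 M1 is low and M2 and M3 are both high, whereas Bhmt and Cps1 have M1 level with M3 and a peak in M2.

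When the mean of Alb and Afp in each array entered the model as a covariate, the difference of Bhmt was 2.60 and that of Agmat 0.91. In the same fit Arg1 moved to -1.81, Gamt to -1.62 and Gatm to -0.53. The covariate itself was 8.139, 11.001 and 11.109 in M1, M2 and M3, against 6.189, 7.215 and 6.563 in C1, C2 and C3. It was higher in every double-null array, so this fit cannot separate liver signal from genotype. With M1 alone set against the Fz8-null arrays, an alternative chosen after the data were seen, the differences were 2.83 for Bhmt, 0.98 for Agmat, -1.36 for Arg1 and -1.10 for Gamt. Erythroid genes were also highest in M2 and M3, with a mean level over 10 genes of 6.72, 9.38 and 9.52 in M1, M2 and M3, against 7.26, 7.38 and 7.16 in C1, C2 and C3. In M1 this erythroid mean, though not every gene in it, lay below every Fz8-null array, whereas the liver secretory mean in M1 lay above every one. Macrophage genes, relevant to Arg1, averaged 6.28, 7.36 and 7.33 over 12 genes in M1, M2 and M3, against 6.40, 6.77 and 6.63 in C1, C2 and C3. Their highest arrays were M2 and M3, where Arg1 was also higher than in M1, and the part of these cells in Arg1 was not tested.

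The proximal tubule, the segment of the mature kidney that holds several of these enzymes, gave mixed values. Of 14 measured markers 9 were higher and 5 lower (median 0.08), and their mean level was 5.68, 5.34 and 5.75 in M1, M2 and M3, against 5.42, 5.48 and 5.49 in C1, C2 and C3. Hnf4a, a nuclear receptor of liver and of early proximal tubule, read 9.10, 7.82 and 8.54 in M1, M2 and M3, against 7.50, 7.44 and 7.53 in C1, C2 and C3. Its groups did not overlap, but M1 was highest and M2 lowest, whereas Bhmt was highest in M2, and the difference of 1.00 (SE 0.30) did not pass (limma adjusted p = 0.314). Its other probe sets, all dimmer, stood between -0.14 and 0.69. One of them (1450447_at) also separated the groups, at 0.60, and the rest overlapped. It read 4.76, 4.76 and 4.31 in M1, M2 and M3, against 4.02, 3.97 and 4.03 in C1, C2 and C3, so M2 was not the lowest there. The sodium-glucose cotransporter gene Slc5a2 stood at -0.96 (limma adjusted p = 0.314), below every Fz8-null array. Mean levels of the 14 markers ran from 2.56 to 9.29, and Slc34a1 and Fbp1 were among the dim ones in all arrays.

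The genes whose values over the 6 arrays were most like those of Bhmt were ranked by Pearson r among 4402 genes that ranged over at least 1 log2 unit. All of these correlations follow the split between genotypes, so they describe likeness and nothing more. The closest were Lax1, a lymphocyte adaptor gene (r = 0.993), Mlkl, the effector of necroptosis (0.989), Pde6c, a cone phosphodiesterase gene (0.989), Uroc1, urocanate hydratase of histidine breakdown (0.989), and Fabp2, a fatty acid binding protein gene of gut (0.988). Uroc1 had the widest range of these, at 6.04, 7.41 and 6.48 in M1, M2 and M3, against 4.48, 4.57 and 4.42 in C1, C2 and C3. Like Bhmt it was highest in M2. Agmat ranked 7 for Bhmt (0.985), Cps1 49 (0.934), Afp 125 (0.891) and Alb 145 (0.883). For Agmat the closest were Hddc3, a pyrophosphohydrolase gene (0.988), Lax1 (0.988), Bhmt (0.985), Fabp2 (0.984) and Nwd2 (0.977), with Afp at rank 46 and Alb at rank 57.

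**Figure D4:**
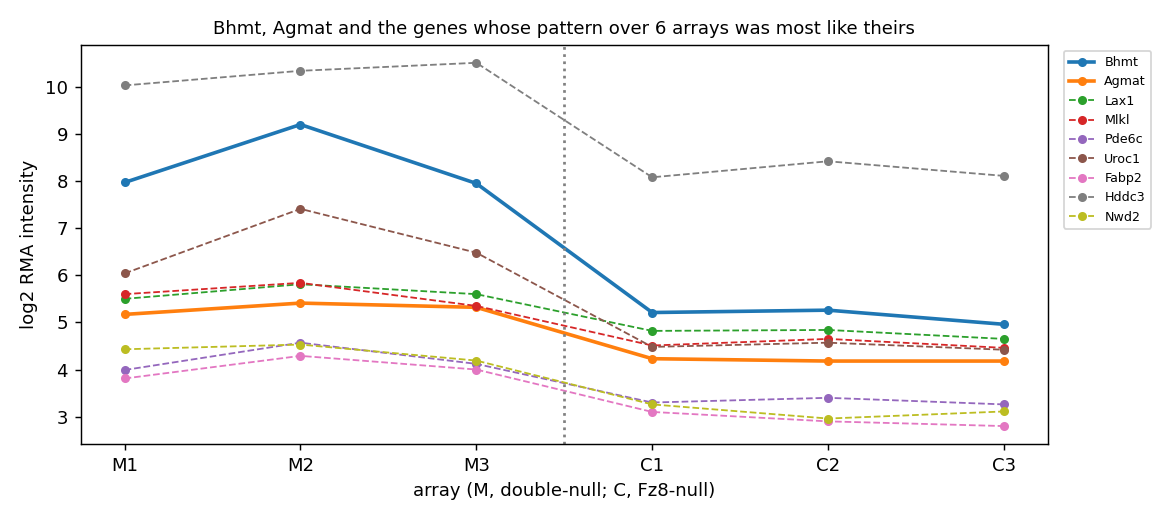
Log2 RMA intensity in the 6 arrays, double-null M1 to M3 left of the dotted line and Fz8-null C1 to C3 right of it, for Bhmt and Agmat (thick lines) and the 7 other genes nearest to either by Pearson r (dashed lines). All 9 genes lie higher in every double-null array, and Bhmt and Uroc1 both peak in M2.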

How the data were processed

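The deposited table holds log2 probe-set intensities for 6 Affymetrix MOE430.2 arrays (cRNA from 100 ng of total RNA, per the labels' protocols), normalized with RMA by the authors, per the submitters' processing notes, version not given in the sources used here. The values were used as deposited. After 64 control probe sets were set aside, 45037 were tested; 34945 carried 1 gene, 932 several and 9160 none in the probe annotation. Each of 18193 genes was represented by its single-gene probe set of highest mean.

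Genotypes from the labels were compared with limma 3.58.1 under R 4.3.3 (lmFit, eBayes; two-sided; Benjamini-Hochberg over genes, threshold 0.05), fitted over all genes. The script was tested on simulated data. Differences are double-null minus Fz8-null, SE is limma's, and precision rests on 3 arrays a group. The labels do not say how animals were divided among arrays, so p-values measure only the spread between these samples.

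The members and the 13 lists (154 genes with the members, 141 measured) were chosen with earlier results of these data known. Named genes were the members with all probe sets, Fzd4, Alb and Afp, from each list any gene past the threshold or the 2 of smallest p, other pathway genes by value, and the 5 genes most like Bhmt and Agmat. Cell type genes named beyond these (Six2, Wt1, Ttr, Apoa1, Slc34a1, Fbp1) were chosen after their values were seen. Alternatives were a minimum mean log2 of 6, quantile normalization, equal medians, trend and robust eBayes, array weights, a replicate block, leaving out each array, other choices of probe set, an Alb and Afp covariate, and an adjusted p of 0.1. Protein identities of related enzymes were not analysed here.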

Additional observations from a re-analysis of the deposited data

How the results depend on the processing

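In all 16 alternatives Bhmt stayed positive (2.60 to 3.44), as did Cbs (0.08 to 0.32), and Arg1 (-1.81 to -0.47), Gamt (-1.62 to -0.40) and Cth (-0.19 to -0.02) stayed negative. Agmat (0.91 to 1.17) and Ass1 (0.07 to 0.32) were positive in all 15 that measured them. Gatm and Mat1a changed sign in 2 and 4. Some of these settings could not alter a difference. They are the minimum mean, trend and robust eBayes, the replicate block and, for a gene with 1 probe set such as Bhmt, the choice of probe set. The others reuse the arrays that chose Bhmt and Agmat, so these signs are no independent support. The median over the members ran from -0.13 to 0.13. Members lower without overlap numbered 0 with quantile normalization or equal array medians (11.4% and 10.1% of all genes) and 4 with M1 alone (42% of all genes), and 1 to 3 when single arrays were left out (13.9% to 34.1% of all genes). Members higher without overlap numbered 2 to 4 over the settings (3.08% to 27.3% of all genes).

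Genes called higher and lower, against 1 and 4, and probe sets called, against 5, depended on the setting, and the cause was not tested. Array weights gave 2832 and 4744 genes and 20686 probe sets, with 13 list genes higher and 28 lower, against 0 and 0. M1 alone gave 551 and 283 genes and 4203 probe sets, with 3 and 7 list genes; the lone array is assumed to vary like the others. A minimum mean of 6 gave 2 genes higher and 2 probe sets, trend and robust settings 2 genes higher, the mean of all probe sets 0 and 1 genes, an adjusted p of 0.1 gave 3 and 8, and the Alb and Afp covariate 0 and 0 with 0 probe sets. Leaving out single arrays gave 0 to 1346 genes higher, 2 to 1946 lower and 0 to 10747 probe sets, with 0 to 17 list genes higher and 0 to 12 lower, the highest gene counts without M3 and the 17 without M1 (35 genes higher). With the replicate block 0 genes were higher, 3 lower and 0 probe sets were called. Arrays of the same number had residual correlations of 0.167, -0.140 and 0.090, so numbers were not taken as pairs. Levels near the bottom of the array (Mat1a, Ass1, Agmat in Fz8-null kidneys) limit any fold.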

Other observations

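Of 10 measured genes in the hepatocyte enzyme list, which also holds Cps1 and Otc, 9 had a positive difference, against 41.9% of all genes. Groups did not overlap for 2 of these, against 6.68% of all genes on the higher side, and limma called 0 over all genes. The 9 include Hpd, Hgd and Fah of tyrosine breakdown, at 0.66, 0.59 and 0.56. Tdo2, the tryptophan dioxygenase gene, read 5.73, 6.03 and 4.42 in M1, M2 and M3, against 4.39, 3.85 and 3.44 in C1, C2 and C3 (difference 1.50, limma adjusted p = 0.314). Among the double-null arrays it was lowest in M3, the array with the highest Alb, yet M3 was still above every Fz8-null array. Its other probe sets overlapped between groups, with differences of 0.21 and 1.31, and M3 read 2.93 and 2.33 in them, below every Fz8-null array in the first and within the Fz8-null range in the other. Asgr1, the asialoglycoprotein receptor gene of hepatocytes and not an enzyme, was the negative gene of the list, at 4.94, 4.85 and 6.00 in M1, M2 and M3, against 6.06, 6.67 and 6.28 in C1, C2 and C3 (difference -1.07, limma adjusted p = 0.314). Hpd, Hgd, Fah and Asgr1 were named after their values were seen.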
